A study of Mus musculus with 17 samples.

Results

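Among the genes that bone marrow-derived dendritic cells (BMDC) expressed without drug, 74 were at no more than 50% of that level after the STING agonist MSA2. They were picked from CPM values, which give the count of a gene per 1000000 gene counts of its library. The mean of the 3 Control libraries had to be at least 10 CPM, the mean of the 3 MSA2 libraries at most 0.5 of it, and every MSA2 library below every Control library. Of 55487 gene rows, 8665 reached 10 CPM in Control, and 82 of these met the numbers, which is 0.946%. Genes of 10 given names and 5 name prefixes were then left out, which removed Icosl, Id3, Tsc22d3, Trib1, Dusp5, Egr2, Sesn1 and Osgin1. Because the MSA2 and Control libraries of BMDC chose the genes, their difference in those libraries is given as a description, without a test.

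The study sequenced RNA of 17 mouse libraries, per its description from KPC mice, a strain that develops pancreatic cancer, while the genotype label gives WT. BMDC are grown from bone marrow in culture and present antigen to T cells, and they gave 3 Control libraries, 3 with MSA2 and 2 with MSA2 plus IPI-549. B cells of the spleen, the antibody-producing lineage, gave 3 libraries in each of the same groups. MSA2 is a small molecule that activates STING, an innate immune sensor, and IPI-549 (eganelisib) inhibits PI3Kγ, a lipid kinase of leukocytes. MSA2 plus IPI-549 is called the combination below. No group had IPI-549 alone, and dose, time and whether replicates came from separate mice are not in the labels, so p-values may measure technical spread only. The treatment label reads Control throughout, and groups come from the sample titles.

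Total gene counts ran from 34757983 to 73163252 per BMDC library, with the most in MSA2 replicate 2, and from 41090638 to 51429550 per B cell library. The smallest count of any of the 74 genes in a BMDC library was 79, a count whose own counting error is not small beside the spread between libraries. Summed dendritic cell markers in BMDC lay at 17007 to 19226 CPM in Control, 18821 to 20808 CPM with MSA2 and 20128 to 20811 CPM in the combination. The same sum was 28382.5 to 30127 CPM in B cell Control libraries, so it is not specific to dendritic cells. With MSA2 in BMDC, edgeR called 7 of the 18 markers higher and 3 lower at an adjusted p under 0.05 (14.6% and 13.5% of all genes tested). Summed macrophage markers lay at 17110 to 19978, 14040 to 16896 and 15921 to 16826 CPM in the same order, so the cultures labelled as dendritic cells also expressed macrophage markers. None of the 74 genes is in a marker list. In these bulk libraries, fewer cells of a type and less RNA per cell cannot be told apart.

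STING signalling through TBK1 and IRF3 is known for inducing interferons and inflammatory cytokines in dendritic cells. The 74 genes include transcription factors, receptors for lipids, nucleotides and other small ligands, and feedback regulators of growth factor and insulin signalling, and many of these are known to respond quickly to signals from outside the cell. FOXO factors, which PI3K and AKT keep out of the nucleus, are known activators of Fbxo32, Txnip and Irs2 in other tissues. C/EBPα and C/EBPβ are transcription factors of myeloid cell development.

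With MSA2 the 74 genes lay at 15.3 to 49.9% of their Control mean, with a median of 39.5%, while the median over the 8665 genes was 97.6%. Their Control means ran from 10.03 to 476 CPM. By role, 10 encode G protein-coupled receptors, 18 transcription factors or cofactors, 3 alpha-arrestins, 9 regulators of growth, stress or insulin signalling and 4 glycosyltransferases. A further 2 are lipid enzymes, 5 secreted or surface proteins and 2 immune regulators, and 21 have other or unassigned roles. Roles were assigned after the genes were known. The rule left every MSA2 library below every Control library, which was the case for 27.7% of the 8665 genes. Within Control the SD was 9.01% of the mean for the median gene, and it passed 20% for 12 genes. Within MSA2 it was 15.1%, and it passed 20% for 22 genes. The deepest MSA2 library, replicate 2, held the highest MSA2 value for 37 of the 74. Its median was 107% of the group mean over the 74 and 98.7% over the 8665 genes. The share of the 8665 in this position is not given here, and the part of depth was not tested.

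**Figure D1:**
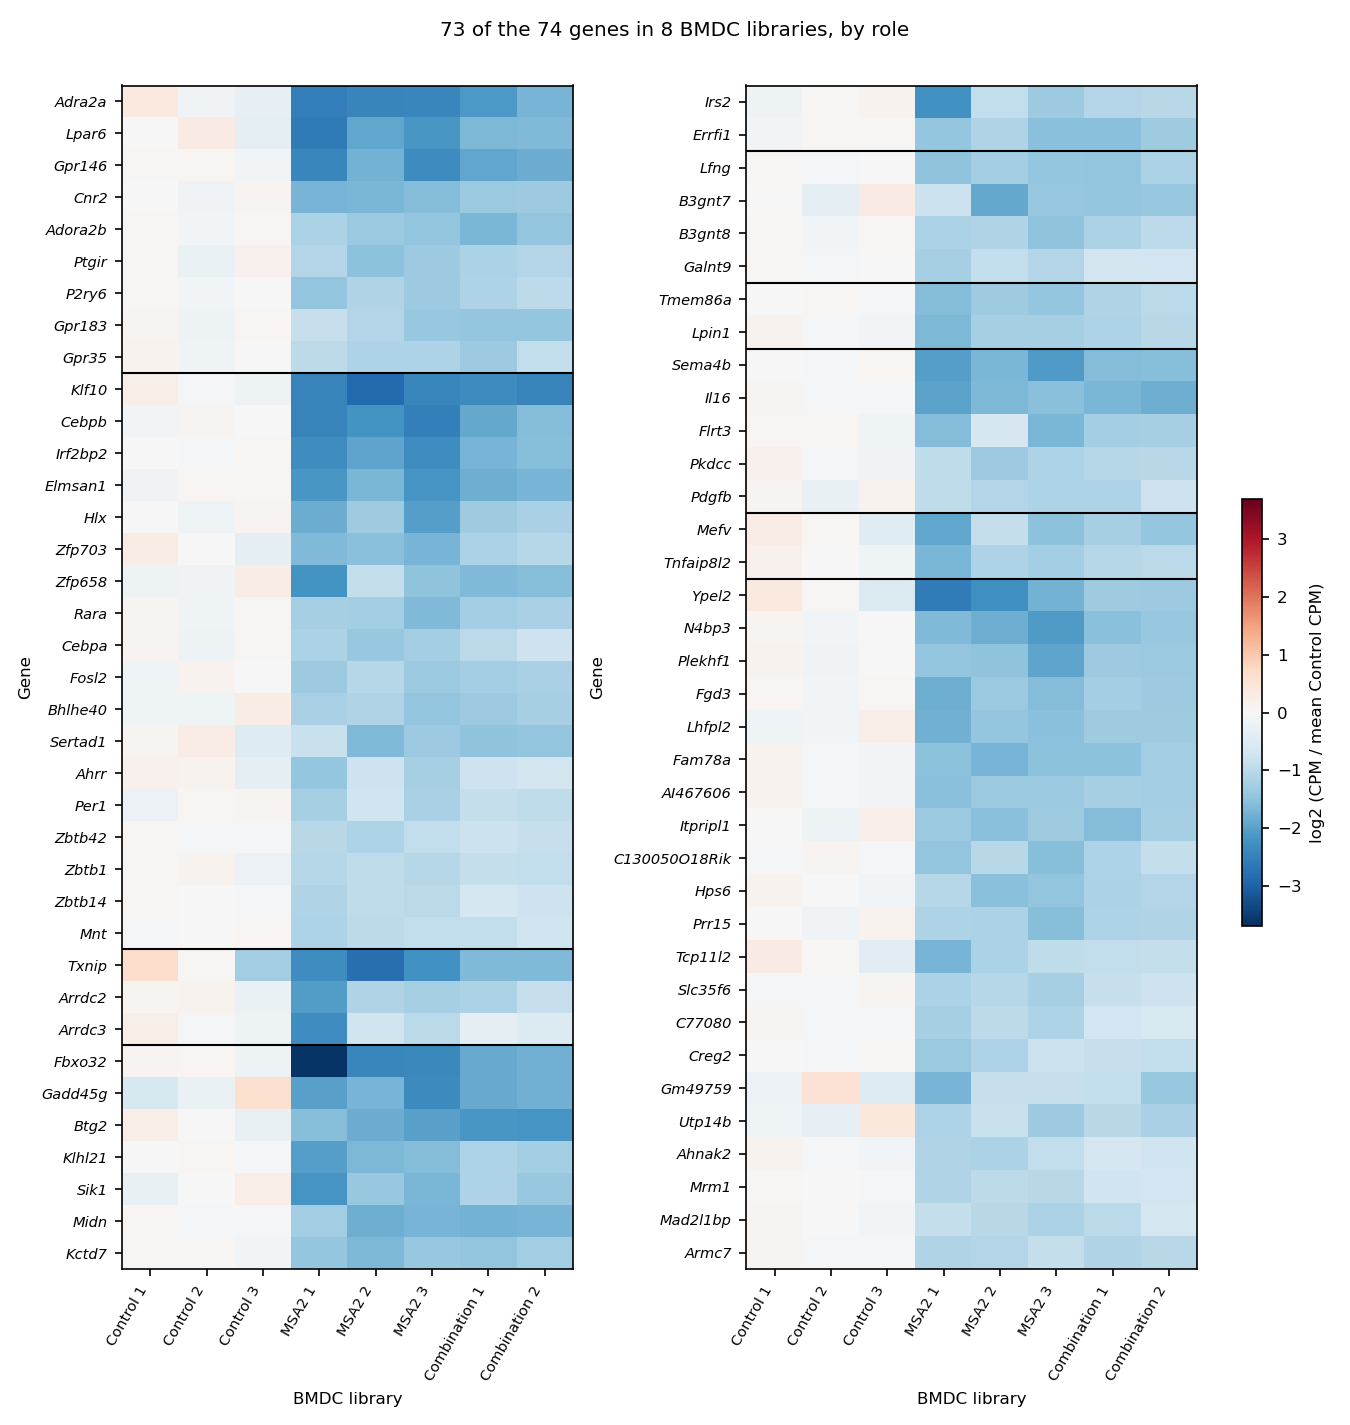
Level of 73 of the 74 genes (rows, grouped by role with black lines) in the 8 BMDC libraries (columns), as log2 of CPM over the mean Control CPM of that gene. Blue cells fill the MSA2 columns by the choice of genes. The combination columns are blue in 73 of 73 rows, relative to Control libraries that did take part in the choice. Over the 8665 genes, 28.3% had both combination libraries below every Control library.

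Regulators of growth, stress and insulin signalling held the lowest ratio. Fbxo32 (ENSMUSG00000022358, chr15:58175879-58214932, minus strand in GRCm38), the F-box protein atrogin-1 that marks muscle proteins for degradation, was at 89.5, 86.6 and 72.8 CPM in the Control libraries. With MSA2 it was at 6.66, 15.5 and 15.9 CPM, and in the combination at 22.8 and 24.001 CPM. The 3 groups did not overlap, and the combination lay between the other groups. Btg2 (chr1:134075170-134079120, minus strand), an antiproliferative protein that recruits the CCR4-NOT deadenylase to messenger RNA, was at 81.4, 69.99 and 58.1 CPM in Control and 23.6, 19.7 and 17.4 CPM with MSA2. Its combination libraries, at 15.7 and 15.4 CPM, were below every MSA2 library, a position it shared with Gpr183 alone among the 74. Sik1, a salt-inducible kinase, was at 15.2, 18.04 and 21.5 CPM in Control, 3.996, 6.94 and 5.65 CPM with MSA2 and 8.23 and 6.97 CPM in the combination. Irs2, the insulin receptor substrate, lay at 37.8% of Control with MSA2, over a wide range of 7.23, 18.1 and 13.6 CPM. Errfi1, a feedback inhibitor of the EGF receptor, lay at 39.4%, and Gadd45g, a growth arrest and stress gene, at 25.04% with Control libraries that spread from 6.70 to 14.99 CPM. Klhl21, a cullin adaptor, lay at 29.6%, Midn (midnolin) at 33.2% and Kctd7 at 35.4%.

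The promoters of Btg2 and Errfi1 each hold the full cyclic AMP response element TGACGTCA within 250 bases before a RefSeq start. It is shown because Btg2 and Sik1 are textbook targets of signalling through that element, and the capitals mark it.
Btg2, GRCm38.p6, chr1:134079156-134079405, minus strand: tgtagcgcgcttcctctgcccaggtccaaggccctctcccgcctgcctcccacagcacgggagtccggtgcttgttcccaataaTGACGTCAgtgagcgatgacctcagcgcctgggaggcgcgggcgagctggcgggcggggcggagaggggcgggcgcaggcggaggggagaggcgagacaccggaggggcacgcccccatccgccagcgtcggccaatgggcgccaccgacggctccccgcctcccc
Errfi1, GRCm38.p6, chr4:150855008-150855037, plus strand: gctgcgggcgtTGACGTCAcgttgtcgctc
Of the 64 genes with a RefSeq promoter, 2 (3.13%) held this element, against 3.22% of 6902 other genes that reached 10 CPM in Control, so the share is near that of other genes. No promoter of Sik1 is in the table used.

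The 3 alpha-arrestins are adaptors that bring ubiquitin ligases to membrane proteins. Txnip (chr3:96557957-96561883, plus strand), which also binds thioredoxin and limits glucose uptake, was at 581, 382 and 153 CPM in the Control libraries, the widest Control spread of the 74, with an SD of 57.6% of the mean. With MSA2 it was at 75.3, 54.2 and 79.3 CPM and in the combination at 121 and 121 CPM. Even the lowest Control library was above every treated one, and both combination libraries were above every MSA2 library. Arrdc3 was at 56.4, 46.5 and 43.1 CPM in Control and 9.82, 29.1 and 24.4 CPM with MSA2, where replicate 1 was far below the others. Its combination libraries, at 38.3 and 34.2 CPM, came nearest to Control of all 74, at 74.5% of the Control mean. Arrdc2 lay at 37.5% with MSA2 and 49.6% in the combination.

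Txnip and Gpr146 were the only 2 of the 64 genes with a RefSeq promoter to hold the forkhead pattern TGTTTAC on either strand. FOXO and other forkhead factors bind this core. Gpr146 has several RefSeq starts, and its pattern ends 56 bases before a later one that lies inside the gene. The windows are shown because Txnip is a known FOXO target, with the pattern in capitals as it reads on the gene's strand.
Txnip, GRCm38.p6, chr3:96557825-96557854, plus strand: ttggaggcctgGTAAACAagggccaagtag
Gpr146, GRCm38.p6, chr5:139389830-139389859, plus strand: cgaaaccagctGTAAACAcagatagggagg
The share, 3.13%, compares with 2.64% of the other genes.

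The G protein-coupled group included several receptors for small ligands, and its 10 genes lay at 17.9 to 47.1% of Control with MSA2. Adra2a (chr19:54044151-54048982, plus strand), the alpha-2A adrenergic receptor, was at 45.3, 32.4 and 28.6 CPM in Control, 5.96, 6.46 and 6.62 CPM with MSA2 and 8.08 and 10.8 CPM in the combination. The MSA2 values were tight, and the lowest Control library was far above all of them. Lpar6, a receptor for lysophosphatidic acid, was at 69.7, 85.6 and 54.9 CPM, 11.5, 18.4 and 15.6 CPM and 21.9 and 22.4 CPM in the same order. Gpr146, an orphan receptor, was at 72.7, 74.3 and 66.1 CPM in Control and 13.4, 21.05 and 14.3 CPM with MSA2, and its combination values of 18.8 and 19.8 CPM fell inside the MSA2 range. Cnr2, the cannabinoid receptor of immune cells, lay at 31.4% of Control, Adora2b, an adenosine receptor, at 39.8%, Ptgir, the prostacyclin receptor, at 40.7%, and P2ry6, a receptor for UDP, at 40.8%. Gpr35 lay at 47.1%. Gpr183, the oxysterol receptor that guides migration in lymphoid tissue, was at 35.3, 29.2 and 34.7 CPM in Control, 18.2, 15.5 and 12.5 CPM with MSA2 and 12.3 and 12.2 CPM in the combination. In the combination, 4 of the 10 receptor genes, Adra2a, Lpar6 and Cnr2 among them, had both libraries above every MSA2 library, and Gpr183 had both below. Of the 8665 genes, 17.8% had both above and 11.9% both below. The receptor genes were picked for low values in these MSA2 libraries, so nothing is read from this order.

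**Figure D2:**
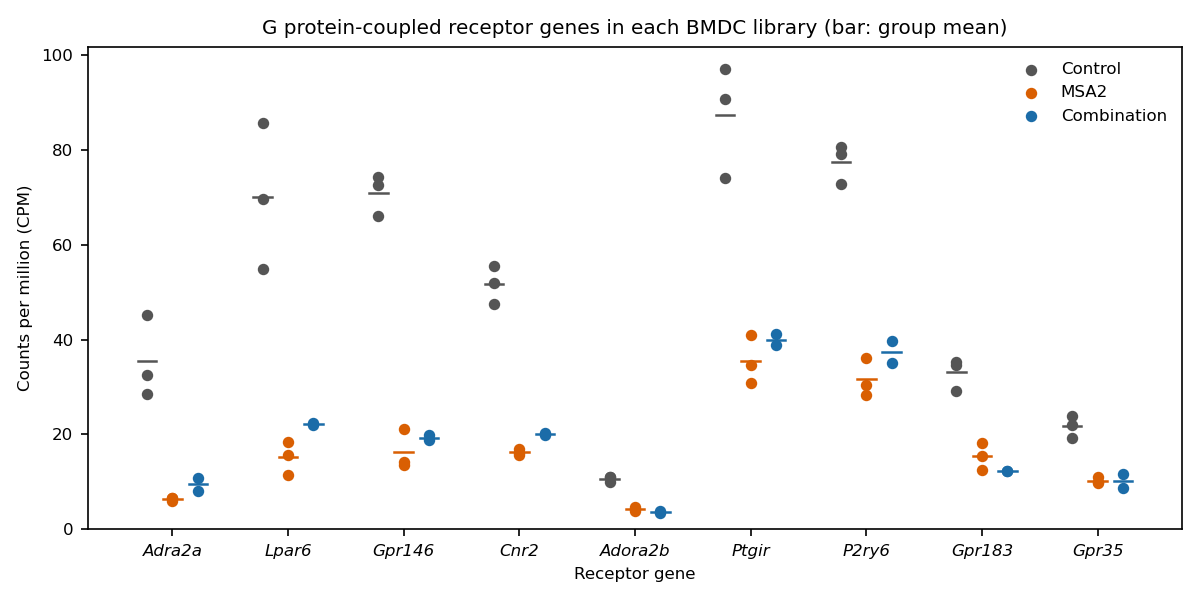
CPM of 9 of the 10 receptor genes in each BMDC library (points) with the group mean (bars), for 3 Control, 3 MSA2 and 2 combination libraries. Control points stand above all MSA2 points by the choice of genes, and above the combination points too. The combination points of Gpr183 stand below its MSA2 points.

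Transcription factors and cofactors formed the largest role, with 18 genes at 16.8 to 49.9% of Control. Klf10 (chr15:38291463-38300706, minus strand), a Krüppel-like factor induced by TGF-β, was at 35.7, 29.7 and 27.2 CPM in Control, 5.59, 4.21 and 5.75 CPM with MSA2 and 6.10 and 5.51 CPM in the combination, the lowest combination share of the 74 at 18.8%. Cebpb (chr2:167688915-167690418, plus strand), C/EBPβ, was at 120.3, 138 and 126 CPM, 23.3, 27.7 and 22.2 CPM and 34.8 and 41.7 CPM in the same order. For Cebpb the combination lay above MSA2 and far below Control, without overlap. Cebpa, C/EBPα, was at 120.4, 98.9 and 116 CPM in Control, 49.7, 42.1 and 47.1 CPM with MSA2 and 56.4 and 65.5 CPM in the combination. Both myeloid factors thus had the order Control, combination, MSA2. Bhlhe40, a helix-loop-helix repressor and the most abundant of the 74, was at 427, 422 and 578 CPM in Control, 209, 219.7 and 175 CPM with MSA2 and 188 and 201 CPM in the combination, inside the MSA2 range. Irf2bp2, a corepressor of IRF2, was at 87.1, 85.3 and 92.5 CPM, 17.9, 22.7 and 18.04 CPM and 26.8 and 29.6 CPM. Elmsan1, a scaffold of a histone deacetylase complex, lay at 25.2% of Control with MSA2, the homeobox factor Hlx at 31.02%, Zfp703 at 32.3% and Zfp658 at 37.2%. The retinoic acid receptor Rara lay at 38.9%, the AP-1 subunit Fosl2 at 41.9%, Sertad1 at 42.6%, Ahrr, the repressor of the aryl hydrocarbon receptor, at 45.9%, and the clock gene Per1 at 48.9%. Zbtb42, Zbtb1, Zbtb14 and Mnt, a repressor that pairs with MAX, closed the range at 49.3%, 49.3%, 49.5% and 49.9%.

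The glycosyltransferases lay at 38.2 to 48.04% of Control. Lfng, the fringe enzyme that modifies Notch, was at 72.6, 67.7 and 70.01 CPM in Control and 24.9, 29.3 and 26.1 CPM with MSA2, a narrow spread in both groups. B3gnt7 and B3gnt8, which extend lactosamine chains, lay at 40.8% and 42.3%, and Galnt9, an enzyme of O-glycosylation, at 48.04%. Both lipid enzymes, the phosphatidate phosphatase Lpin1 at 39.01% and the lysoplasmalogenase Tmem86a at 36.9%, had combination libraries above every MSA2 library. This position was held by 17.8% of the 8665 genes. Among secreted and surface proteins, Sema4b, a semaphorin, was at 49.4, 48.1 and 51.98 CPM in Control and 12.1, 15.6 and 11.7 CPM with MSA2. The cytokine Il16 lay at 30.4%, Flrt3 at 43.1%, Pkdcc, a secreted tyrosine kinase, at 45.7% and the growth factor Pdgfb at 48.4%. Flrt3 had a single MSA2 library apart, at 20.4, 40.2 and 19.2 CPM. Mefv, which encodes pyrin, lay at 38.5%, and Tnfaip8l2, which encodes the inflammation inhibitor TIPE2, at 39.6%.

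The 21 genes of other or unassigned role lay at 22.3 to 49.4% of Control with MSA2. Ypel2 was the lowest, at 29.5, 23.5 and 15.7 CPM in Control, 3.81, 4.73 and 6.77 CPM with MSA2 and 9.28 and 9.004 CPM in the combination, 3 groups without overlap. Lhfpl2 was the most abundant, at 187, 194 and 244 CPM in Control and 60.6, 77.5 and 71.1 CPM with MSA2. N4bp3 lay at 28.1%, Plekhf1 at 32.7%, Fgd3, an exchange factor for CDC42, at 33.3%, Fam78a at 33.5%, and Hps6, a subunit of a complex for lysosome-related organelles, at 39.5%. Slc35f6 lay at 45.3%, Tcp11l2 at 42.4%, C77080 at 46.3%, Ahnak2 at 47.8%, Creg2 at 46.98% and AI467606 at 37.3%. The other 8 were Itpripl1, C130050O18Rik, Prr15, Gm49759, Utp14b, Mrm1, Mad2l1bp and Armc7, between 37.5% for the first and 49.4% for the last.

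Near the thresholds the values ran without a gap. Mnt (49.9%), Zbtb14 (49.5%), Armc7 (49.4%), Mad2l1bp (49.4%) and Zbtb1 (49.3%) were the last genes inside the ratio, and Rab7b (50.2%), Tor4a (50.3%), Rab3il1 (50.5%), Zfp568 (50.6%) and Relt (50.6%) the first outside. Gadd45g (10.03 CPM), Mefv (10.2 CPM), Adora2b (10.6 CPM), Arrdc2 (10.8 CPM) and Zfp658 (10.8 CPM) had the lowest Control means inside the level. Just outside it were Mrgpre (9.75 CPM), Rhov (9.70 CPM), S1pr3 (9.52 CPM), Cyp26b1 (9.31 CPM) and Ppp1r3d (9.09 CPM). S1pr3, a sphingosine phosphate receptor, lay at 17.8% of Control with MSA2, lower than all but 2 of the genes inside.

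In the combination, both libraries were below every Control library for 74 of the 74 genes, a position that 28.3% of the 8665 genes held. These values used the same Control libraries as the choice of genes and are given as a description. The combination means ran from 18.8 to 74.5% of Control, with a median of 42.6%, where the median over the 8665 genes was 98.9%. At most 50% of Control remained for 56 genes, and 18 lay above it. Against MSA2, both combination libraries were higher than every MSA2 library for 34 genes (17.8% of the 8665), lower than every one for 2 (11.9%), and overlapped for 38. The combination mean was above the MSA2 mean for 59 and below it for 15, with a median ratio of 1.16, against 1.01 over the 8665 genes. Because the genes were picked for low values in these same MSA2 libraries, this order is not evidence about IPI-549. Combination replicate 2 held the higher value for 52 of the 74. Its median was 102% of the group mean over the 74 and 99.5% over the 8665 genes, and the share of the 8665 in this position is not given here.

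The ratio of the combination to MSA2 was highest for Fbxo32 (1.85), Ypel2 (1.79), Txnip (1.73), Arrdc3 (1.72) and Cebpb (1.57), followed by Adra2a (1.49), Klhl21 (1.46) and Lpar6 (1.46). Fitted log2 differences between these groups were 0.86 ± 0.26 (SE) for Fbxo32, 0.79 ± 0.38 for Txnip, 0.64 ± 0.11 for Cebpb and 0.76 ± 0.31 for Arrdc3. Each of these genes had both combination libraries above the MSA2 range. At the other end stood Btg2 (0.769) and Gpr183 (0.797), the growth regulator and the oxysterol receptor already described. Sertad1 (0.847), Adora2b (0.848), Zfp658 (0.877), Midn (0.906), B3gnt7 (0.912) and Errfi1 (0.940) had lower combination means with libraries that overlapped those of MSA2. Across all genes, edgeR's quasi-likelihood test called 0 of 14613 between the combination and MSA2 in BMDC at an adjusted p under 0.05, with 1595 (10.9%) at an unadjusted p under 0.05. DESeq2 called 155 of 12196 and limma-voom 3 of 14613.

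**Figure D3:**
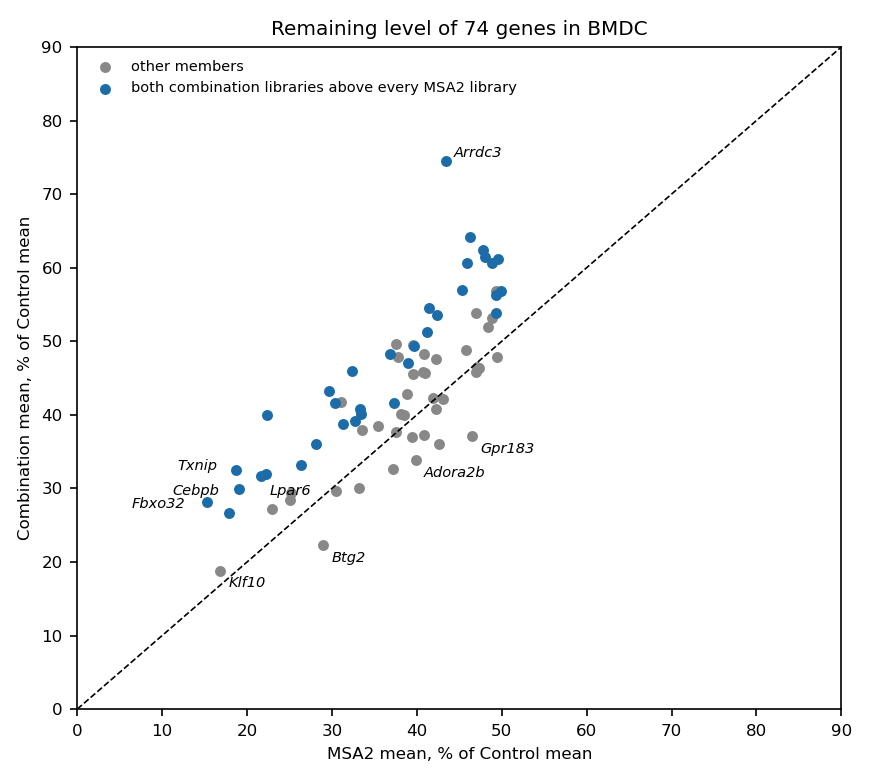
Mean level with MSA2 (x axis) against mean level in the combination (y axis), both as percent of the Control mean, for the 74 genes in BMDC; the dashed line marks equal levels and blue points the 34 genes with both combination libraries above every MSA2 library. No point passes 50% on the x axis by the choice of genes, and Arrdc3 stands highest on the y axis at 74.5%.

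Other genes of the same pathways, from lists of known members, did not all go the same way with MSA2 in BMDC. Over all 14613 genes tested, edgeR called 13.5% lower and 14.6% higher at an adjusted p under 0.05. The counts that follow leave out the 74 genes, which were picked for low values with MSA2. Genes left out of the 74 by name, such as Id3 (6.44% of Control with MSA2) and Trib1 (12.8%), still count in any list that holds them. Of 24 other FOXO targets and factors, 7 fell, 4 rose and 13 were not called, beside Fbxo32, Txnip and Irs2. Of 14 other circadian clock genes, 7 fell and 1 rose, beside Bhlhe40 and Per1. Among 36 other genes of lipid handling and LXR response, 14 fell and 5 rose, beside Lpin1, and among 38 other cytokine and growth factor ligands and receptors 18 fell and 6 rose, beside Pdgfb. Immediate early genes went mostly the other way, with 13 of 25 higher and 6 lower, while Btg2, Fosl2 and Klf10 are among the 74. Of 14 other MAPK feedback genes, 6 rose and 1 fell, beside Errfi1. Receptors were split, with 13 of 58 other myeloid G protein-coupled receptors lower and 15 higher. Lineage transcription factors other than Cebpa, Cebpb and Rara gave 9 lower and 10 higher of 40. Of 21 other cyclic AMP and phosphodiesterase genes, 2 fell and 4 rose, beside Per1 and Sik1. Btg2 stands in both the p53 list, where 5 of 18 others fell and 5 rose, and the RNA decay list, where 3 of 16 fell and 6 rose. Of 25 interferon-stimulated genes, 21 rose and 0 fell, and none of them is among the 74.

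B cells give the same genes in libraries that took no part in the choice. Of the 74, 71 passed the filter on low counts, and Prr15, Flrt3 and Ahrr did not. With MSA2, edgeR called 20 of the 71 lower and 31 higher, and 20 were not called, where 18.5% of all 16194 genes tested were lower and 24.8% higher. The median log2 fold change of the 71 was 0.35, against -0.01 over all genes. All 3 MSA2 libraries of B cells were below every Control library for 19 of the 71 (18.2% of all genes tested) and above every one for 37 (33%).

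Marker genes of other cells moved with that contrast. In B cell libraries the 15 macrophage markers summed to 47.4 to 69.6 CPM in Control, 1649 to 1970 CPM with MSA2 and 47.4 to 49.4 CPM in the combination. The 12 neutrophil markers summed to 2.35 to 34.3, 1706 to 1888 and 0.564 to 0.996 CPM, and the 12 T cell markers to 12.4 to 34.4, 1116 to 1342 and 7.47 to 9.40 CPM, in the same order. The 12 B cell markers summed to 7971 to 8431 CPM in Control, 4342 to 4476 CPM with MSA2 and 7893 to 8210 CPM in the combination. By library number the MSA2 libraries of B cells also come after those of both other groups, so a difference in processing cannot be told apart from MSA2. The part of these other cells in the results below was not tested.

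Some of the genes higher with MSA2 were near 0 in untreated B cells. Of the 31, 14 had a Control mean under 1 CPM, a level from which a decrease could hardly be seen and at which a gene can pass the filter through the MSA2 libraries alone, so nothing is read from the direction of these genes. The receptor gene Gpr35 went from 1.24, 0.933 and 1.75 CPM in Control to 27.99, 40.7 and 16.7 CPM with MSA2 and was at 1.19, 0.992 and 0.728 CPM in the combination. Its combination libraries were thus near the Control level. Cebpa, among the 14, was at 0.758, 0.391 and 0.576 CPM in Control, 8.13, 8.98 and 13.9 CPM with MSA2 and 0.614, 0.406 and 1.02 CPM in the combination. Of the receptor genes, Cnr2 and Gpr183 fell with MSA2 in B cells. Among the 45 genes that averaged at least 10 CPM over the B cell libraries, 19 fell and 12 rose, with a median of -0.26. The shares over all genes of that level are not given here, so nothing is read from this split. That average includes the MSA2 libraries, so a gene high in those alone, such as Gpr35, can reach it.

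Several well-expressed genes fell in B cells as they did in BMDC. Cnr2, whose receptor is abundant on B cells, went from 219.9, 208 and 205 CPM in Control to 97.9, 97.9 and 90.3 CPM with MSA2, a log2 fold change of -1.24 ± 0.07 (SE, edgeR adjusted p = 1.33e-07). In the combination it was at 192, 183 and 195 CPM, higher than with MSA2 by 1.11 ± 0.07 on the log2 scale. B3gnt7 had the largest decrease among genes above 5 CPM, from 157, 168 and 154 CPM to 51.9, 56.6 and 20.2 CPM. Its combination libraries, at 89.98, 96.4 and 45.3 CPM, lay in between, with replicate 3 inside the MSA2 range. Rara fell by 0.91 on the log2 scale, Utp14b by 0.91 and Sema4b by 0.78, in each case with all MSA2 libraries below all Control libraries. These decreases stand beside summed B cell markers that were lower in the same libraries, as given above.

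Other genes that averaged at least 10 CPM over the B cell libraries rose. Fosl2 went from 106, 119.8 and 119 CPM in Control to 477, 603 and 632 CPM with MSA2 and was at 86.3, 94.2 and 103 CPM in the combination, so the AP-1 subunit was high in B cells with MSA2 alone, while the combination libraries were below every Control library. Its log2 fold change with MSA2 was 2.23 ± 0.12 (SE, edgeR adjusted p = 1.04e-07). Errfi1 went from 9.94, 9.03 and 9.53 CPM to 30.02, 31.3 and 68.6 CPM, Zfp703 from 19.2, 19.7 and 20.9 CPM to 50.8, 57.5 and 129 CPM, and Lpin1 from 8.26, 10.1 and 10.2 CPM to 34.2, 39.5 and 31.04 CPM. For Errfi1 and Zfp703, replicate 3 stood above the other MSA2 libraries, and it did so in the combination as well, at 12.5, 11.3 and 29.6 CPM for Errfi1 and 25.5, 25.9 and 68.7 CPM for Zfp703. Fam78a rose by 1.64 and the Notch modifier Lfng by 1.31 on the log2 scale. Klf10, Txnip, Bhlhe40 and Cebpb were not called with MSA2 in B cells, with log2 fold changes of -0.13 ± 0.23, -0.36 ± 0.17, -0.19 ± 0.18 and 0.35 ± 0.15 (SE). Fbxo32, the lowest of all in BMDC, rose by 0.52 ± 0.12 in B cells.

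In the combination, B cells moved the way BMDC did for a few of the genes. Against Control, edgeR called 6 of the 71 lower (8.45%) and 0 higher, where 0.371% of all genes tested were lower and 0.685% higher. At an unadjusted p under 0.05, 30 were lower and 4 higher. DESeq2 called 9 lower and 1 higher, and limma-voom 7 lower and 0 higher. Shares over all genes are not given here for the unadjusted p or these tools, so nothing is read from their counts. The 6 were Cebpb, AI467606, B3gnt8, Tnfaip8l2, Sik1 and N4bp3. Leaving out Control replicate 2, Combination replicate 1 or Combination replicate 2 left 3 of them, AI467606, B3gnt8 and Cebpb. All 3 combination libraries were below every Control library for 33 of the 71 (11.7% of all genes tested) and above every one for 6 (7.01%). The median log2 fold change was -0.27, against -0.02 over all genes, and it was the same with Galnt9, which had 0 counts in the combination, set at the bound that 3 counts over the group allow. Macrophage, neutrophil and T cell markers were in these libraries within or below the range of Control, as given above.

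Cebpb was at 44.3, 63.8 and 47.4 CPM in the Control libraries of B cells and 24.3, 20.2 and 24.1 CPM in the combination, a log2 fold change of -1.16 ± 0.15 (SE, edgeR adjusted p = 0.00216). With MSA2 alone it was at 58.6, 79.3 and 73.6 CPM, so the combination was lower than both other groups without overlap. Sik1 was at 487, 637 and 569 CPM in Control, 308, 437 and 291 CPM with MSA2 and 337, 341 and 318 CPM in the combination. This kinase gene was far more abundant in B cells than in BMDC and was lower than Control in both treated groups (-0.74 ± 0.13 in the combination, SE, edgeR adjusted p = 0.0147). Tnfaip8l2 was at 27.1, 23.8 and 23.1 CPM in Control, 25.4, 23.02 and 27.2 CPM with MSA2 and 13.5, 11.6 and 15.7 CPM in the combination (-0.84 ± 0.14, edgeR adjusted p = 0.0147). TIPE2 is known to restrain innate and adaptive immune responses. B3gnt8 was at 14.9, 15.8 and 14.2 CPM, 5.51, 6.33 and 5.24 CPM and 9.51, 8.16 and 8.45 CPM in the same order, and N4bp3 at 12.4, 15.3 and 14.9 CPM, 6.43, 7.35 and 7.86 CPM and 8.69, 8.77 and 8.99 CPM. For both, the combination lay between MSA2 and Control. AI467606, of no assigned role, was at 74.02, 78.8 and 70.4 CPM, 30.02, 29.5 and 20.7 CPM and 27.99, 30.1 and 19.1 CPM. Sik1, AI467606, B3gnt8 and N4bp3 were also called lower with MSA2, in a contrast that shares the Control libraries.

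Against MSA2, the combination was lower in B cells for 32 of the 71 genes and higher for 13, where 22.9% of all genes tested were lower and 14.1% higher. Of the 32, 26 were genes that rose with MSA2, and all 13 were genes that fell with it, in contrasts that share the MSA2 libraries. Restricted to the 45 genes that averaged at least 10 CPM, with the MSA2 libraries in that average, 11 were lower and 12 higher. Shares over all genes of that level are not given here either. The labels give no pairing, but deviations of same-suffix libraries of these groups were weakly correlated (0.12, 0.15 and 0.26). Pairs of unlike suffix are not given here. With the suffix as a replicate block in a fit of the 2 groups alone, edgeR called 40 lower and 16 higher (25.2% and 17.9% of 15848 genes). That paired fit no longer called Adra2a (adjusted p = 0.0948) and added 12 genes. Those lower were Arrdc2, Bhlhe40, Gm49759, Klf10, Klhl21, Midn, Tmem86a, Zbtb14 and Zfp703, and those higher were Gadd45g, Irf2bp2 and Rara. Zfp703, the factor with replicate 3 apart in both groups, had a log2 difference of -0.88 (adjusted p = 0.133) without the block and -0.91 (adjusted p = 4.26e-06) with it. Gpr35, Fosl2, Lpin1, Gpr146, Fam78a, Cebpb and Lfng were among the largest decreases above 5 CPM, from -4.74 for Gpr35 to -1.27 for Lfng. Gpr146 was at 7.99, 6.23 and 6.54 CPM in Control, 17.7, 18.7 and 13.5 CPM with MSA2 and 5.04, 5.05 and 4.31 CPM in the combination, the last below both other groups. The largest increases were those of Cnr2, B3gnt7, B3gnt8, Utp14b, Irs2, Tcp11l2, Elmsan1 and Mrm1, from 1.11 for Cnr2 to 0.44 for Mrm1. Irs2 was at 722, 803 and 858 CPM in Control, 499, 651 and 533 CPM with MSA2 and 775, 706 and 864 CPM in the combination, where 1 library lay inside the Control range, 1 below and 1 above it. Galnt9 had 387 counts over the MSA2 libraries, 9 over the Control libraries and 0 in the combination. By a floor of 3 counts over the group, the combination was at least 139-fold below MSA2. Its counts came almost only from the MSA2 libraries, which carry the markers of other cells, so nothing is read from this difference.

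**Figure D4:**
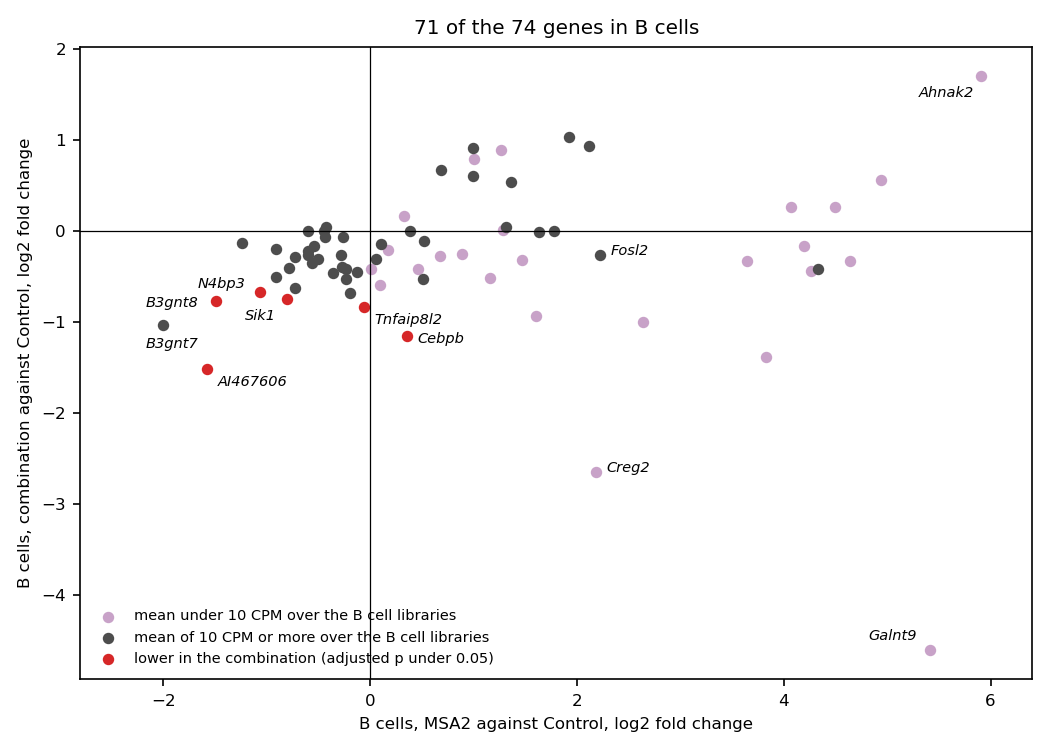
Fitted log2 fold changes in B cells with MSA2 (x axis) and in the combination (y axis), both against the same 3 Control libraries, for the 71 genes tested; purple points have a mean under 10 CPM over the B cell libraries and red points are the 6 called lower in the combination. The red points lie below 0 on the y axis, and the position of Galnt9 rests on 0 counts in the combination.

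The gene models of the 74 had few exons over short spans. In GENCODE release M21 on GRCm38, 73 are protein-coding, with a median of 4 exons in the principal coding transcript, against 10 for 8448 other protein-coding genes that reached 10 CPM in Control. A single coding exon was found in 23 (31.5%), such as Cebpa, Cebpb, Adra2a, Lpar6 and Hps6, against 3.99% of the others, and up to 3 exons in 36 (49.3%), against 9.61%. G protein-coupled receptors often have 1 coding exon, and without the 10 receptors the shares were 23.8% and 41.3%. The gene span had a median of 11.6 kb against 25.2 kb, while the transcripts were not shorter, with medians of 3.305 kb and 3.085 kb. The 3′ UTRs, with a median of 1430 bases against 1084, held the pentamer ATTTA, a core of elements that mark messages for rapid decay, in 65.8% of the 73 and 68.6% of the others. The longer TATTTAT was in 30.1% against 28.8%. Over all bases of these 3′ UTRs, ATTTA stood 1.31 times per kb among the 73 and 1.84 times among the others. All of these are descriptions over genes, without a test. On the chromosomes, Gpr146 and C130050O18Rik lie 8.865 kb apart, and Ahnak2 and Zbtb42 89.4 kb apart.

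**Figure D5:**
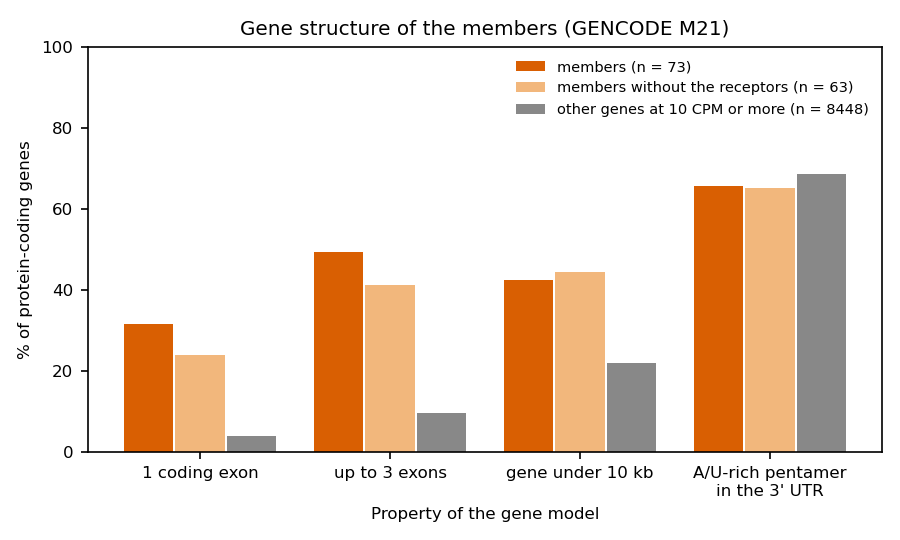
Share of protein-coding genes (y axis, percent) with 1 coding exon, up to 3 exons, a span under 10 kb or the A/U-rich pentamer in the 3′ UTR, for 73 of the 74 genes, for 63 without the receptors and for 8448 other genes of at least 10 CPM in Control. The first 3 shares are higher among the 74 and the last is not.

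Overlapping genes bear on a few of the values, since the strand setting of the counts is not given in the sources used here. For 13 of the 74, another gene at 1 CPM or more overlaps the gene, and for 11 of these it lies on the opposite strand, as Rb1 over Lpar6 and Tmem189 over Cebpb. The overlapping genes were at 71.6 to 127.5% of Control with MSA2, none as low as the 74. Gm49759 lies within Pkm and Utp14b, a retrocopy of Utp14a, within Acsl3 on the same strand, so their counts are uncertain.

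Promoters were searched, over the 250 bases before each RefSeq start and on both strands, for 10 short patterns chosen after the genes were known. Some genes, such as Gpr146, C77080 and Midn, have several such starts, and a match before any of them counted for the gene. The E-box CACGTG, bound by CLOCK, MYC and MAX family factors and by BHLHE40, was in 12 of 64 genes (18.8%) against 10.8% of the 6902 other genes. It is shown for 4 of the 12, including the insulin signalling gene Irs2, with the pattern in capitals.
Irs2, GRCm38.p6, chr8:11008930-11009179, minus strand: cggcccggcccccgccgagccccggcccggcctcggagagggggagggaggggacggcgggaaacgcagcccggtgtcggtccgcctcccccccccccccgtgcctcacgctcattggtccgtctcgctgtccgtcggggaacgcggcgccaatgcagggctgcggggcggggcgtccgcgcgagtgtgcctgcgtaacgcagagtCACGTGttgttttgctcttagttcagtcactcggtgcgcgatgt
Gadd45g, GRCm38.p6, chr13:51846521-51846550, plus strand: cgcacccctcccCACGTGgccttctggcac
Galnt9, GRCm38.p6, chr5:110544190-110544219, plus strand: tgggcctcgctcCACGTGggcctatcctgg
Midn, GRCm38.p6, chr10:80149485-80149514, plus strand: gggtctcgctgcCACGTGgggtagccccgc
The C/EBP pattern TTGCNNAA was in 10 genes (15.6%) against 9.01%, and the EGR pattern GCGGGGGCG in 7 (10.9%) against 5.84%. The AP-1 pattern TGANTCA was in 4 (6.25%) against 5.40%, the interferon-stimulated response element in 1 (1.56%) against 3.32%, and TATAAA in 4 (6.25%) against 7.46%. CCAAT was in 26 (40.6%) against 40.5%, and the GC box GGGCGG, which can overlap the EGR pattern, in 43 (67.2%) against 66.5%. A match is a run of letters and not a bound site. Among the 10 genes without an entry were P2ry6, Sik1, Elmsan1, Pdgfb, Klf10, Fbxo32, Gm49759, Bhlhe40 and Zfp703.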

How the data were processed

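RNA was measured by sequencing in 17 mouse libraries. The authors deposited an expected count for each gene and library, estimated with RSEM 1.3.3 and stored as whole numbers. Per the submitters' processing notes, cutadapt 4.8, STAR 2.7.8a, FastQC 0.11.8 and MultiQC 1.20 were also used, with the build GRCm38. The annotation release and the strand setting are not given in the sources used here.

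CPM values divide a count by the library's total over gene rows. The 3 groups of each cell type were fitted together in edgeR 4.0.16 (R 4.3.3) after TMM scaling and the tool's standard removal of low counts. Calls come from its quasi-likelihood test, at an adjusted p (Benjamini-Hochberg, all genes tested) under 0.05. The scripts were tested on simulated data. The genes and the lists were chosen with earlier results of these data known. Named genes have an established symbol and were taken by rule: the lowest ratios, the highest levels, the nearest to each threshold, the highest and lowest ratios of the combination to MSA2, the largest called changes in B cells and up to 5 per list. Other members named, such as AI467606, were named to account for the genes, except 1 that is not reported here. Counts and log2 values come from fits by group alone, without pairs, unless the replicate block is named. In the fits with the block, same-suffix B cell libraries of MSA2 and the combination were taken as pairs. The correlations of their deviations from the group means (0.12, 0.15 and 0.26) all passed 0.1. Promoter letters are from RefSeq (GRCm38.p6). Alternatives were RLE factors, no filter, a filter of 1 CPM in 3 libraries, DESeq2 1.42.0, limma-voom (limma 3.58.1), the compared groups alone, a replicate block, other thresholds of the rule and each library left out in turn.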

Additional observations from a re-analysis of the deposited data

Results flagged for a closer look

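For 39 of the 74 genes, every MSA2 library lay below every Control library in BMDC, as the choice of genes required, and above every Control library in B cells. Among the 71 tested in B cells this was so for 37, where 33% of all genes tested lay above every Control library with MSA2. For 7 of the 74 genes, every combination library lay below every Control library in BMDC and above every Control library in B cells. Among the 71 this was so for 6, where 7.01% of all genes tested lay above, while 33 of the 71 lay below every Control library in both cell types. The 39 and the 7 stand here because their libraries lay on opposite sides of Control in the 2 cell types, and the difference between the cell types was not tested. The B cell libraries with MSA2 carry the markers of other cells given with the B cell results, and their part in these counts was not tested.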

How the results depend on the processing

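Most counts kept within 1.5 times their value under the alternatives. Restricted to the 45 genes of at least 10 CPM over the B cell libraries, 12 instead of 31 were higher with MSA2 and 19 instead of 20 lower. Between the combination and MSA2, 11 instead of 32 were lower in the combination and 12 instead of 13 higher. Of the 26 tested genes under 10 CPM, 19 were higher with MSA2 and 1 was lower. In the combination, 21 of the 26 were lower than with MSA2 and 1 was higher. The counts of 31 and 32 thus rest largely on genes of low level. In B cells the combination against Control gave 3 to 5 lower and 0 to 1 higher when single libraries were left out. The value was 3 lower without Control replicate 2, Combination replicate 1 or Combination replicate 2. Lpar6 was the 1 gene called higher with RLE factors, with no filter, with DESeq2, with the replicate block and without Combination replicate 3, and the cause was not tested. With a limit of 1 in 3 of the Control level, in place of 50%, 23 genes met the rule. TMM-scaled totals gave 66 genes, and leaving out single libraries 73 to 86. Of 78 calls of named genes in B cells, 63 held in every alternative. Each call was looked up in the alternative fits, which gave 1045 values, of which 52 lost the call and 0 reversed.

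Against Control, title suffixes did not pair the B cell libraries, with correlations of -0.04 to 0.08 for the same-suffix pairs, and with the suffix as a replicate block 23 genes were lower and 32 higher with MSA2 and 9 lower and 1 higher in the combination. Between the combination and MSA2, where the main fit without pairs gave 32 lower and 13 higher, the block over all 3 groups gave 32 lower and 14 higher. The fit of the 2 groups alone with the block, chosen after seeing the data, gave 40 and 16. Without any scaling, the median of all genes shifted by -0.11 on the log2 scale for the combination against MSA2 in B cells.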
